A study of Mus musculus with 7 samples.

Results

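The early pulse genes are 117 of 12071 gene symbols whose RNA stood high on day 1 or day 2 of a 7-day course of retinoic acid in mouse embryonic stem cells and was lower again on days 4 and 5. They were chosen on 3 differences of the deposited log2 values, with the peak taken as the larger of days 1 and 2. The peak had to be 7 or more, at least 1.5 above day 0 and at least 1.5 above the larger of days 4 and 5. Here 1.5 log2 units are 2.83-fold. Together 125 symbols met these thresholds, which is 1.04% of all symbols, and 8 of them (Cdx1, Hoxb1, Hoxb6, Hoxb8, Lefty1, Pax6, Sox1 and Stra8) were left out by name. The rise over day 0 and the fall to days 4 and 5 therefore describe how the genes were chosen and are not findings. Days 3 and 6 took no part in the choice.

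The cells were CCE, a single mouse embryonic stem cell line grown on gelatin without feeder cells, with no gene alteration named in the labels. Cells of days 1, 2, 3, 4, 5 and 6 were grown without leukemia inhibitory factor (LIF), in medium with 5 µM retinoic acid. Day 0 cells were undifferentiated and treated with DMSO, in the growth medium of the line, which holds LIF. After day 0 the loss of LIF, the addition of retinoic acid and the days in culture went together, and their parts cannot be told apart. Each day had 1 library of total RNA depleted of ribosomal RNA. There was no replicate, so no test was possible, and differences are given by size. Each carries an exact binomial (Clopper-Pearson) 95% interval on the recovered reads, called the interval from here on, which covers counting error only.

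Retinoic acid, made from vitamin A, enters the nucleus and binds retinoic acid receptors, which sit on DNA with retinoid X receptors and switch target genes on when the ligand arrives. Its targets include enzymes that degrade it and homeobox genes that pattern the hindbrain and trunk. LIF keeps mouse embryonic stem cells undifferentiated through STAT3, and its removal together with retinoic acid drives them into neural or extraembryonic endoderm fates.

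The recovered reads were summed over all 15296 listed transcripts. They came to 7194325 on day 6 and to between 9911246 (day 3) and 17923852 (day 4) in the other 6 libraries. Transcripts of a gene can share reads, so a read may count more than once and these sums are not library depths. Library medians lay between -0.05 and 0.23 log2 units of the overall median on days 0 to 5, and at -0.91 on day 6, the library that stood apart. The label of a stem cell line was set against marker lists. The 14 naive pluripotency genes listed in the table summed to 19371 scaled reads per kilobase on day 0, then to 4710, 2469, 2304, 2056, 1485 and 371 on days 1 to 6. The 20 extraembryonic endoderm markers listed summed to 4575 on day 0, then to 5018, 29917, 92600, 92365, 69403 and 6461. The naive list was highest on day 0, as the label says, and the endoderm list on days 3 to 5. In bulk RNA, fewer cells of a type and less RNA per cell cannot be told apart.

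All levels below are log2 scaled reads per transcript, not divided by length. Peaks fell on day 1 for 52 of the 117 genes (44.4%) and on day 2 for 65 (55.6%). Day 1 was the higher of the 2 days in 50.2% of the 10760 symbols with a peak of 7 or more, and in 4.09% of the 1247 symbols that had the same rise and no fall. The median rise over day 0 was 2.51 log2 units (range 1.51 to 8.42) and the median fall to days 4 and 5 was 2.19 (range 1.5 to 7.45). Among all symbols with a peak of 7 or more, 12.8% had such a rise and 5.81% such a fall. Day 1 already stood at least 1.5 above day 0 in 85 genes. In 23 genes the peak was sharp on day 1, with day 2 at least 1.5 below it. In 27 it was sharp on day 2, with day 1 at least 1.5 below, and in 46 the 2 days lay within 1 log2 unit. No share over all symbols was computed for these counts, the 85 genes included, so they only describe the 117 genes. Both the rise and the fall had an interval wholly above 0 in all 117 genes, and wholly above 1 in 115. The choice required both differences to be 1.5 or more, so these 2 counts largely follow from it and give the pulses no support.

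Day 0 reads were few for many of these genes, with a median of 46 reads (range 1 to 4608). The median was 293 over all symbols with a peak of 7 or more, and 50 over those with the same rise and no fall. Day 0 took part in the choice, so a low day 0 count is no separate result. Peak levels per length ran from 23.1 scaled reads per kilobase for Prkcb to 10249 for Slc2a1, with a median of 184. The median was 264 over all symbols with a peak of 7 or more, and 169 over those with the rise and no fall. Grouping by role was done after the values were seen, as was the naming of genes beyond the rule stated under the processing. The 4 members with clone names are counted but not described.

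**Figure D1:**
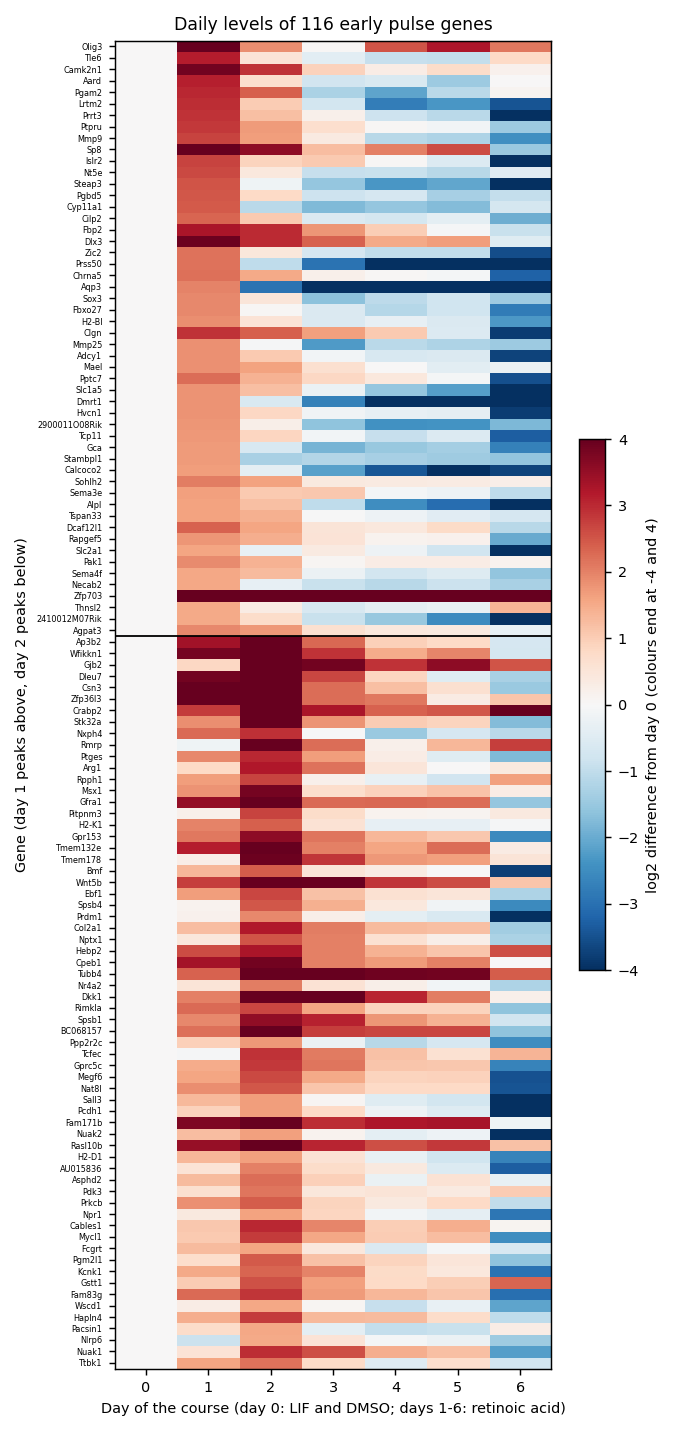
Colour shows the log2 difference of each day from day 0 for 116 of the 117 genes (rows; day 1 peaks above the line, day 2 peaks below) across days 0 to 6 (columns, 1 library each). The red band of days 1 and 2 pales by day 3, and the day 6 column is lower still, with 54 of all 117 genes (46.2%) at least 1.5 below day 0, against 36.6% of all symbols with a peak of 7 or more. Colours end at 4 log2 units either way.

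Promoters are shown for the 4 genes with the highest pulses, measured as the peak minus the highest of days 0, 4 and 5, to set out how differently such genes begin. Each line gives the 250 bases before the annotated start, 5′ to 3′ on the gene's own strand, from RefSeq on build GRCm38.p6. Capitals mark every match, on either strand, to the GC box GGGCGG, the nuclear receptor half-site AGGTCA, the E-box CAGCTG and the TATA letters TATAAA; a match on the other strand reads as CCGCCC or TGACCT.
Ap3b2, chr7:81493926-81494175, minus strand: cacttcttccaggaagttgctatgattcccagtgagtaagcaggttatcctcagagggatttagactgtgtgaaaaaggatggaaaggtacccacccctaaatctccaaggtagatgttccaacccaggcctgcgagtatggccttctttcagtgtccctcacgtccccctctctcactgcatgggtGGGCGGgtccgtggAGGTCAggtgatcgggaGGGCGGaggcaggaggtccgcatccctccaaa
Wfikkn1, chr17:25880859-25881108, minus strand: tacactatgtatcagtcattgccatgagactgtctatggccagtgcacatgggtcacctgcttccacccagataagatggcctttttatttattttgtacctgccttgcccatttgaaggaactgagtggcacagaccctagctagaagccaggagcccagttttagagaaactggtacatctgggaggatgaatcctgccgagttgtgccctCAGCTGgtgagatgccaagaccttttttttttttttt
Gjb2, chr14:57104703-57104952, minus strand: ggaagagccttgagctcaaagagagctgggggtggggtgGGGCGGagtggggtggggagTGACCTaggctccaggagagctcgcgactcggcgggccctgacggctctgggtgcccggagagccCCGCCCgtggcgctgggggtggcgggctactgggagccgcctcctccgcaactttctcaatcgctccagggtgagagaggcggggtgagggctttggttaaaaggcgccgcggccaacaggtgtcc
Olig3, chr10:19356289-19356538, plus strand: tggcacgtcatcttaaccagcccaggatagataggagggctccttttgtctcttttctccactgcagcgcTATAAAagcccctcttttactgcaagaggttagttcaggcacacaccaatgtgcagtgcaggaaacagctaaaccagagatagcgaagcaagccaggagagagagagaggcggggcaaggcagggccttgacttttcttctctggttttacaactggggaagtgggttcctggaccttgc

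None of the 4 motifs occurred in all of these promoters. Ap3b2 and Gjb2 each held 2 GC boxes and 1 half-site, Wfikkn1 held 1 E-box, and Olig3 held TATA letters alone. Their CpG counts were 7 in Ap3b2, 1 in Wfikkn1, 18 in Gjb2 and 4 in Olig3. Promoter windows of 300 bases (250 before to 50 after the start) were found for 83 of the 117 genes. A pair of nuclear receptor half-sites in direct repeat with a spacer of 1, 2 or 5 bases, the arrangement retinoic acid receptors bind, occurred in 0 of the 83 (exact upper bound 4.35%), against 0.407% of 8611 table symbols with a peak of 7 or more. At 83 windows that difference was not detectable. The single half-site AGGTCA occurred in 19 (22.9%, exact 95% interval 14.4% to 33.4%), against 14.1%. With each of the 118 promoter entries counted once, these shares were 17.8% and 11.8%. GGGCGG occurred in 71.1%, against 72.5%, CAGCTG in 24.1%, against 17.2%, TATAAA in 13.3%, against 7.80%, and CCAAT in 34.9%, against 43.2%. TGACTCA, the AP-1 letters, occurred in 4.82%, against 4.08%, CTTTGAT, the TCF letters, in 3.61%, against 2.86%, and AGATAA, the GATA letters, in 8.43%, against 6.78%. Each table-wide share lay within the counting interval of the members' share, apart from AGGTCA, where it lay just outside. No test was made, and several motifs were compared. The members had more promoter entries each (1.42, against 1.28), and a match in any entry counted. The median CpG count was 18 in the pulse genes and 22 in all such symbols, and 20.5% of pulse gene windows held fewer than 10 CpG, against 10.6%. A match is a description of letters, not of binding, and elements farther from the start were not searched.

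Transcription factors numbered 16, of which 9 peaked on day 1. Zfp703, a zinc finger repressor, had the largest rise of all 117 genes, and Olig3, a basic helix-loop-helix factor of the dorsal neural tube, was high on a single day. Zfp703 had log2 values of 3.75, 12.17, 11.45, 10.31, 10.49, 10.64 and 7.80 on days 0 to 6. It was 342-fold higher on day 1 than on day 0, a difference of 8.42 (interval 7.37 to 9.73) log2 units, from 7 reads on day 0. Its fall was among the smallest, and it remained far above its day 0 level on day 5, by 6.89 (interval 5.84 to 8.20). Olig3 had 0.94, 7.86, 2.82, 0.99, 3.46, 4.16 and 3.04. Its day 0 value is that of 1 read, the lowest value in the library, which may stand for no read, so the difference of day 1 from day 0 was 6.92 (interval 4.42 to 12.23). The gene had 135 reads on day 1, then 4 on day 2 and 1 on day 3, and low levels on days 4 and 5 stood above that trough. Olig3 was high in the day 1 library alone.

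Sox3 and Zic2, which act in neural progenitors, and Sp8, a zinc finger factor of limb and forebrain development, also peaked on day 1. Sp8 had log2 values of 2.94, 8.24, 6.52, 4.16, 4.95, 5.54 and 1.46 on days 0 to 6, so that day 1 stood 5.30 (interval 3.92 to 7.19) above day 0. Zic2 had 7.59, 9.75, 8.04, 6.93, 6.62, 6.60 and 4.04. Sox3 had 7.74, 9.66, 8.23, 6.08, 6.69, 6.93 and 6.32. All 3 were highest on day 1, intermediate on day 2 and lower again on day 3. On day 5 Zic2 and Sox3 were below day 0, with day 5 minus day 0 at -0.99 (interval -1.43 to -0.55) for Zic2 and -0.81 (interval -1.21 to -0.41) for Sox3, while Sp8 was above it on day 5, at 2.60 (interval 1.13 to 4.55). Its day 6 minus day 0 was -1.48 (interval -7.11 to 1.85), with an interval that spans 0. Zic5, a neighbour of Zic2 outside the thresholds, had a rise of 1.45. Msx1, a homeobox factor downstream of BMP in the dorsal neural tube, had 3.75, 5.54, 7.57, 4.45, 4.66, 4.90 and 4.04. It peaked a day later than the other neural plate genes, with day 2 2.03 (interval 1.41 to 2.70) above day 1, and by day 3 stood 0.70 (interval -0.79 to 2.31) from day 0.

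The day 2 factors also included Ebf1, a regulator of B cell and neuronal differentiation, Prdm1 (Blimp1), which specifies germ cell precursors, Nr4a2, an orphan nuclear receptor of dopamine neurons, Tcfec of the MiT family, Sall3 and Mycl1. Prdm1 had log2 values of 6.75, 6.93, 8.68, 6.99, 6.37, 6.14 and 2.46 on days 0 to 6. Days 0 and 1 were alike, and day 2 stood 1.75 (interval 1.36 to 2.15) above day 1. Tcfec showed the same delay, with 4.75, 4.69, 7.65, 6.83, 5.92, 5.35 and 6.10. Dlx3, a homeobox gene of placenta and surface ectoderm, peaked on day 1 at 7.44, a rise of 3.92 (interval 2.74 to 5.39). In both Prdm1 and Tcfec the day 2 library was the highest. Ebf1, Nr4a2, Sall3 and Mycl1 had day 2 rises of 2.68, 2.05, 1.67 and 2.80. Dmrt1, a factor of testis and germ cells, was the lowest of the factors on day 5, with 7.03, 8.83, 6.43, 4.32, 2.72, 2.26 and 1.46. It stood 1.80 (interval 1.41 to 2.21) above day 0 on day 1, and by day 5 lay -4.77 (interval -6.69 to -3.35) from day 0. Sohlh2, a helix-loop-helix factor of spermatogonia, had 7.21, 9.24, 8.83, 7.59, 7.57, 7.52 and 7.46 and returned close to its starting level on days 3 to 6. Tle6, a Groucho family protein of the egg's subcortical maternal complex, had 7.03, 10.17, 7.59, 6.61, 6.12, 6.07 and 7.82, a day 1 rise of 3.14 (interval 2.78 to 3.52).

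**Figure D2:**
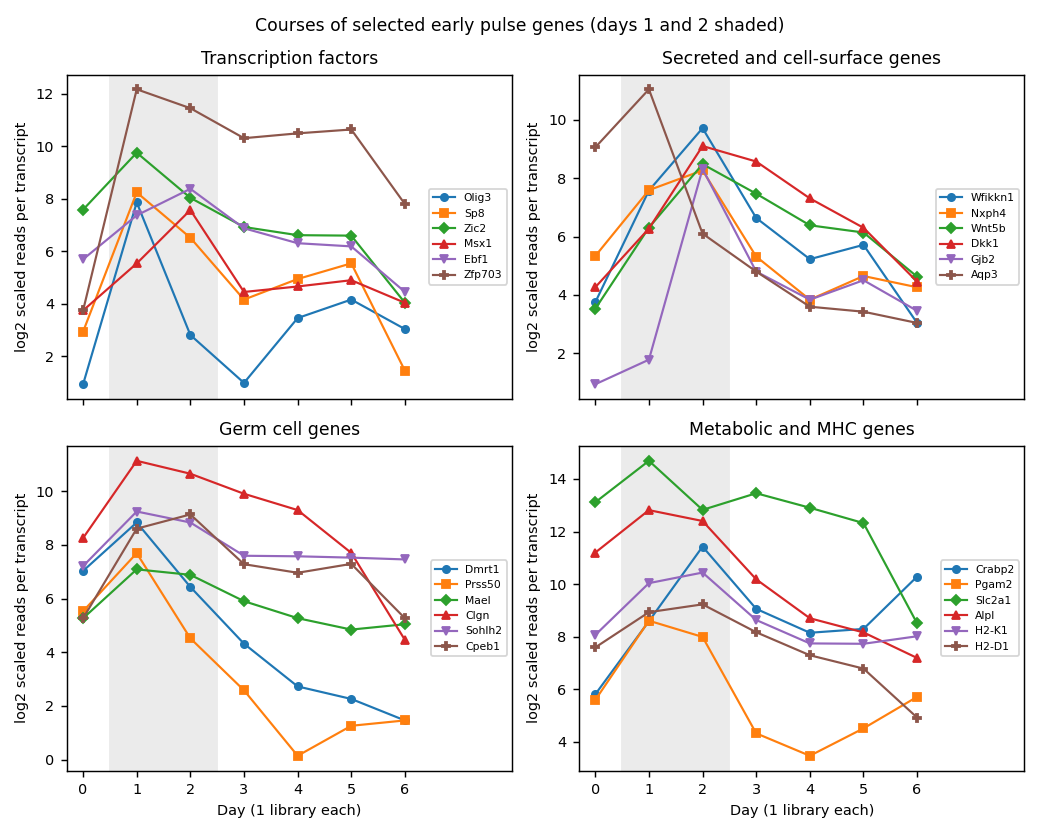
Log2 scaled reads per transcript (y axes) against day (x axes, 1 library each) for selected pulse genes, with days 1 and 2 shaded. Olig3, Sp8, Zic2, Aqp3, Dmrt1 and Prss50 peak on day 1, Gjb2, Wfikkn1, Dkk1, Msx1 and Crabp2 on day 2, and Zfp703 stays above 10 until day 5.

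Other genes of germ cells and RNA control numbered 7, and 5 of them peaked on day 1. They include Mael, which guards germ cells against transposons, Clgn, a chaperone of the testis, Cpeb1, which controls polyadenylation of stored maternal RNAs, and Prss50, a testis protease. Prss50 had log2 values of 5.53, 7.69, 4.52, 2.58, 0.14, 1.26 and 1.46 on days 0 to 6. It was 4.48-fold higher on day 1 than on day 0 and then lower each day until day 4, when 1 read was left. Clgn had 8.26, 11.13, 10.65, 9.90, 9.30, 7.70 and 4.46, a rise of 2.88 (interval 2.64 to 3.12) with a slow decline. Mael had 5.26, 7.09, 6.88, 5.90, 5.27, 4.84 and 5.04 and sat closest of all 117 genes to the peak threshold, at 7.09. Aard, a gene of testis with a domain rich in alanine and arginine, had 8.04, 11.15, 8.72, 7.28, 7.42, 6.60 and 8.04. Its day 1 level stood 3.11 (interval 2.86 to 3.38) above day 0, and days 3 to 5 lay below day 0. Zfp36l3, a rodent relative of tristetraprolin that destabilises RNA in placenta, had 1.94, 6.71, 7.46, 4.16, 4.05, 2.26 and 3.04. Only 2 reads were recovered on day 0, and day 2 stood 5.52 (interval 3.63 to 8.58) above it. Tcp11, a testis gene, was the other day 1 member of this group, with a rise of 1.72. Of the 8 genes on a germ cell and meiosis list with a peak of 7 or more, 3 had the rise and 3 the fall, and 2 (Mael and Prdm1) had both. Over all symbols with such a peak, 12.8% had the rise and 5.81% the fall.

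Secreted and matrix genes numbered 15, of which 10 peaked on day 2. The group held signalling ligands, inhibitors of ligands, proteases and matrix proteins. Wfikkn1, a secreted protein that binds myostatin and GDF11, had log2 values of 3.75, 7.58, 9.71, 6.64, 5.23, 5.72 and 3.04 on days 0 to 6. Day 2 was 62.5-fold higher than day 0, a difference of 5.97 (interval 4.91 to 7.29). Day 1 was already well above day 0, and days 3 to 5 stood between day 0 and day 1. Wnt5b, a Wnt ligand, had 3.53, 6.31, 8.48, 7.47, 6.39, 6.14 and 4.63. Dkk1, a secreted inhibitor of canonical Wnt signalling, had 4.26, 6.28, 9.10, 8.57, 7.31, 6.30 and 4.46. The ligand and the inhibitor shared the day 2 peak, at rises of 4.96 (interval 3.81 to 6.42) for Wnt5b and 4.84 (interval 3.94 to 5.91) for Dkk1, and both were still far above day 0 on day 3. Among the 11 genes of a Wnt list with a peak of 7 or more, 4 had the rise and 3 the fall, and these were the 2 with both. Over all symbols with such a peak, 12.8% had the rise and 5.81% the fall. Col2a1, the collagen of cartilage and notochord, had 6.64, 7.88, 9.84, 8.70, 7.91, 7.84 and 5.26, with a rise of 3.19 (interval 2.78 to 3.63).

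Neuronal genes of the secreted and matrix group peaked on either day. Nxph4, a neurexin ligand, had log2 values of 5.33, 7.59, 8.27, 5.32, 3.84, 4.65 and 4.26 on days 0 to 6 and was back at the day 0 level on day 3. Nptx1, a pentraxin of synapses, had 5.03, 5.48, 7.55, 7.06, 5.63, 5.26 and 3.78. Its day 3 level stood only -0.48 (interval -0.95 to -0.03) from the peak. Sema3e, an axon guidance ligand of plexin D1, and Sema4f, a membrane-bound semaphorin placed in this group, peaked on day 1 with rises of 1.65 and 1.56. Both metalloproteases peaked on day 1. Mmp9, the matrix gelatinase B, had 6.50, 9.20, 8.17, 6.85, 5.39, 5.26 and 4.04, a day 1 rise of 2.71 (interval 2.26 to 3.18). Mmp25, a membrane-anchored metalloprotease, peaked on day 1 and reached its lowest level on day 3, at 3.80. Csn3, kappa-casein, had 2.94, 7.54, 7.69, 5.16, 4.14, 3.58 and 1.46 and stood at a similar height on days 1 and 2. The remaining members, Cilp2, Megf6 and Hapln4, had rises of 2.32, 2.65 and 2.79.

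Receptors and other membrane proteins numbered 15, and 9 peaked on day 2. Islr2, Ptpru, Lrtm2 and Prrt3 had the highest pulses of the day 1 genes, and Gfra1, the coreceptor of the growth factor GDNF, of the day 2 genes. Gfra1 had log2 values of 5.80, 9.33, 10.74, 8.06, 8.10, 8.04 and 4.26 on days 0 to 6. Day 2 was 30.7-fold higher than day 0, a difference of 4.94 (interval 4.41 to 5.53), and days 3 to 5 held a lower plateau well above day 0. Fam171b, a membrane protein, had a similar plateau after day 2, with 3.94, 7.69, 8.88, 6.90, 7.18, 7.24 and 3.78. Tmem132e, a gene of hearing, stood 4.47 (interval 3.75 to 5.29) above day 0 on day 2. Ptpru, a receptor tyrosine phosphatase, had 7.39, 10.20, 9.08, 8.06, 7.44, 7.28 and 5.92, a day 1 rise of 2.81 (interval 2.49 to 3.15). Lrtm2, with leucine-rich repeats, had 6.50, 9.44, 7.50, 5.75, 3.72, 4.16 and 3.04 and Prrt3, a proline-rich membrane protein, had 6.30, 9.20, 7.52, 6.52, 5.46, 5.21 and 1.46. Both were lower on days 4 and 5 than on day 0. Islr2, an immunoglobulin and leucine-rich repeat protein of growing axons, had 9.18, 11.88, 10.07, 10.21, 9.23, 8.63 and 3.78; days 2 and 3 were alike. Its 8 listed transcripts can share reads, and all met the thresholds. Chrna5, a nicotinic acetylcholine receptor subunit, peaked on day 1 with a rise of 2.22. Npr1, the receptor of atrial natriuretic peptide, and Pcdh1, a protocadherin, peaked on day 2 with rises of 1.60 and 1.66. The orphan receptors Gpr153 and Gprc5c had day 2 rises of 3.58 and 2.82. Tmem178 stood at the day 0 level on day 1 and 3.68 (interval 2.64 to 4.93) above day 1 on day 2. Tspan33 and Wscd1 had rises of 1.61 and 1.54.

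Channels and transporters numbered 7, and 5 peaked on day 1. They held the largest step of day 2 over day 1 (Gjb2) and the largest fall (Aqp3) among the 117 genes. Gjb2, connexin 26 of gap junctions, had log2 values of 0.94, 1.78, 8.32, 4.80, 3.84, 4.51 and 3.46 on days 0 to 6. It had 1 read on day 0, 2 on day 1 and 181 on day 2, so that day 2 stood 6.53 (interval 4.66 to 9.59) above day 1. Gjb2 was high in the day 2 library alone, with a difference of -3.51 (interval -4.41 to -2.73) on day 3. Aqp3, a channel for water and glycerol, had 9.06, 11.05, 6.10, 4.80, 3.60, 3.43 and 3.04. It was 3.97-fold higher on day 1 than on day 0, yet day 2 was -4.94 (interval -5.44 to -4.48) from day 1, already below day 0. Day 5 lay -5.63 (interval -6.77 to -4.68) from day 0, the lowest such value of the 117 genes. Steap3, a ferrireductase of iron uptake, had a day 1 rise of 2.51 (interval 2.21 to 2.82) and a day 5 level -2.09 from day 0. Slc1a5, the glutamine transporter ASCT2, had 10.20, 12.01, 11.42, 9.97, 8.66, 7.99 and 5.26 and was likewise below day 0 on day 5. Slc2a1, the glucose transporter GLUT1 and the most abundant pulse gene per length, had 13.11, 14.69, 12.82, 13.46, 12.90, 12.32 and 8.50. Its day 1 rise of 1.58 (interval 1.53 to 1.63) rested on 4608 reads on day 0, and days 2 to 5 stayed near day 0. Hvcn1, a voltage-gated proton channel, peaked on day 1 with a rise of 1.80. Kcnk1, a potassium leak channel, had 5.99, 7.50, 8.30, 7.96, 6.75, 6.41 and 3.04 and, of all 117 genes, was nearest its peak on day 3.

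Signalling enzymes and their regulators numbered 16, with 7 peaks on day 1 and 9 on day 2. Camk2n1, an inhibitor of the kinase CaMKII, had log2 values of 6.64, 10.52, 9.55, 7.58, 6.93, 7.39 and 6.82 on days 0 to 6, a 14.6-fold difference of day 1 over day 0, or 3.87 (interval 3.47 to 4.31) log2 units. Stk32a, a serine/threonine kinase, had 5.53, 7.38, 9.51, 7.32, 6.53, 6.41 and 3.78 and peaked on day 2, 3.98 (interval 3.39 to 4.64) above day 0. Camk2n1 was higher on day 1 than on day 2, and Stk32a the reverse. Rasl10b, a small GTPase of the Ras family, had a day 2 rise of 4.49 (interval 3.79 to 5.28) and kept 2.84 of it on day 5. Nuak1 and Nuak2, both kinases related to AMPK, peaked on day 2 with rises of 2.96 and 1.65. Day 3 stood -0.40 from the peak in Nuak1 and -1.50 in Nuak2. Adcy1, an adenylyl cyclase, Rapgef5, a Rap exchange factor, and Pak1, a kinase downstream of Rac and Cdc42, peaked on day 1 with rises of 1.82, 1.75 and 1.88. Gca, grancalcin, and Necab2, both calcium-binding proteins, had sharp day 1 peaks with rises of 1.71 and 1.55. Pptc7, a mitochondrial phosphatase, had 9.67, 11.89, 11.06, 10.48, 10.08, 9.60 and 6.16. The other day 2 genes were Pitpnm3, Ppp2r2c, Prkcb, Cables1 and Ttbk1, with rises between 1.74 (Ppp2r2c) and 3.02 (Cables1). Of the 17 genes on a list of FGF and ERK ligands and feedback genes with a peak of 7 or more, 2 had the rise and 9 the fall, and none had both. Over all symbols with such a peak, 12.8% had the rise and 5.81% the fall.

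Ubiquitin adaptors and enzymes numbered 5. Spsb1 and Spsb4, SOCS-box adaptors that recruit substrates to cullin ligases, both peaked on day 2. Spsb1 had log2 values of 7.30, 9.23, 10.84, 10.36, 9.08, 8.69 and 6.54 and Spsb4 had 7.17, 7.32, 9.64, 8.59, 7.59, 7.04 and 4.63 on days 0 to 6. Spsb1 was already higher on day 1, while Spsb4 stood at its day 0 level until day 2. Fbxo27, an F-box protein that recognises glycoproteins, Stambpl1, a deubiquitinase of endosomes, and Dcaf12l1 peaked on day 1 with rises of 1.92, 1.69 and 2.37.

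Metabolic enzymes and carriers numbered 17, with 10 peaks on day 2. Crabp2, which carries retinoic acid to its nuclear receptors, had the largest rise among them. Crabp2 had log2 values of 5.80, 8.59, 11.43, 9.06, 8.15, 8.29 and 10.28 on days 0 to 6. Day 2 was 49.4-fold higher than day 0, a difference of 5.63 (interval 5.10 to 6.21), and days 3 to 5 stood near the day 1 level. Over all symbols with a peak of 7 or more, 12.8% had the rise and 5.81% the fall. Of the 22 genes on a list of retinoic acid targets and metabolism with such a peak, 17 had the rise and 5 the fall, and 3 (Crabp2, Zfp703 and Dleu7) had both. The median day 5 minus day 0 was 4.60 log2 units over that list, and 2.49 in Crabp2, 6.89 in Zfp703 and -0.49 in Dleu7. Dleu7, a gene of the region deleted in some leukemias, had 3.75, 7.62, 8.15, 6.42, 4.60, 3.26 and 2.46. It peaked on day 2 at 4.40 (interval 3.32 to 5.74) above day 0 and was near day 0 on day 5.

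Enzymes of sugar metabolism peaked on either day. Pgam2, the muscle form of phosphoglycerate mutase, had log2 values of 5.59, 8.60, 7.99, 4.32, 3.46, 4.51 and 5.71 on days 0 to 6, a rise of 3.02 (interval 2.42 to 3.68). Fbp2, the muscle fructose bisphosphatase, had 5.53, 8.81, 8.50, 7.28, 6.51, 5.47 and 4.63. Both were high on days 1 and 2 together. Pgm2l1, which makes glucose bisphosphate, and Pdk3, which inhibits pyruvate dehydrogenase, peaked on day 2 with rises of 2.44 and 2.14. Among enzymes that make signals, Ptges, the prostaglandin E synthase, had 8.61, 10.54, 11.65, 10.28, 8.91, 8.14 and 6.85, with day 2 3.03 (interval 2.82 to 3.25) above day 0. Cyp11a1, which starts steroid synthesis from cholesterol, had 6.07, 8.53, 4.99, 4.32, 4.53, 4.35 and 5.36. Cyp11a1 was high on day 1 only, and day 2 lay below day 0. Nt5e (CD73), which makes adenosine outside cells, had a sharp day 1 peak, with a rise of 2.64 (interval 2.19 to 3.11). Alpl, the alkaline phosphatase long used as a stain for undifferentiated stem cells, had 11.20, 12.81, 12.40, 10.18, 8.70, 8.16 and 7.19. It stood 1.62 (interval 1.52 to 1.71) above day 0 on day 1, and -3.04 (interval -3.24 to -2.84) from day 0 on day 5. Arg1, the arginase of the urea cycle, had a day 2 rise of 3.19 (interval 2.71 to 3.71). The remaining members, Hebp2, Rimkla, Nat8l, Asphd2, Gstt1, Thnsl2 and Agpat3, had rises between 1.53 (Thnsl2) and 3.27 (Hebp2).

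MHC class I and immune genes numbered 6. H2-K1 and H2-D1, which present peptides to T cells, peaked on day 2, and H2-Bl on day 1. The rise of H2-Bl was 1.85. H2-K1 had log2 values of 8.06, 10.03, 10.44, 8.63, 7.74, 7.73 and 8.01 and H2-D1 had 7.59, 8.93, 9.23, 8.16, 7.29, 6.78 and 4.92 on days 0 to 6. Both were high on days 1 and 2 and at or below the day 0 level on days 4 and 5. MHC class I genes are near-identical copies that can share reads, so their separate levels are uncertain. Fcgrt, the MHC-like receptor that recycles IgG, had a day 2 rise of 1.56. Calcoco2 (NDP52), a receptor for autophagy of bacteria in human cells, had 8.87, 10.55, 8.48, 6.70, 5.46, 4.65 and 5.16. Day 5 lay -4.22 (interval -4.94 to -3.58) from day 0. Nlrp6, an inflammasome sensor, was the member with the lowest day 1 value against day 0, -0.85 (interval -1.61 to -0.11), and stood 1.53 (interval 1.02 to 2.06) above day 0 on day 2.

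The remaining named genes held the highest pulse. Ap3b2, a neuronal subunit of the AP-3 vesicle adaptor, had log2 values of 6.53, 9.89, 11.81, 8.83, 7.49, 7.33 and 5.85 on days 0 to 6. Day 2 was 38.9-fold higher than day 0, a difference of 5.28 (interval 4.87 to 5.73), and 19.98-fold higher than day 4. Tubb4, a beta-tubulin of neurons, had 4.85, 7.19, 10.57, 9.62, 8.74, 8.71 and 7.26 and kept a level far above day 0. Near-identical tubulin genes may share its reads. Bmf, which promotes cell death by binding BCL2, and Pacsin1, of endocytosis at synapses, peaked on day 2 with rises of 2.42 and 1.53. Pgbd5, derived from a transposase, had a sharp day 1 peak with a rise of 2.48, and Fam83g a day 2 rise of 2.87. The noncoding RNAs Rmrp and Rpph1, the RNA parts of RNase MRP and RNase P, had 3.94, 3.78, 8.17, 6.16, 4.14, 5.26 and 6.71 for Rmrp and 5.03, 6.69, 7.72, 5.24, 4.72, 4.26 and 6.67 for Rpph1. Both were highest on day 2 and again high on day 6. At 276 and 306 nt they are the shortest members.

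Day 3 was the first day outside the choice of genes that followed the peak. All 117 genes stood below their peak on day 3, with an interval wholly below 0 in each, whereas 73.8% of all symbols with a peak of 7 or more stood below theirs. The median day 3 minus peak was -1.81 log2 units (range -6.87 to -0.34), against -0.28 over all symbols with a peak of 7 or more and -0.014 over those with the rise and no fall. Day 3 was at least 1.5 below the peak in 73 genes (62.4%), against 5% of all such symbols, and at least 1 below in 104 (88.9%), against 11.3% of all and 6.26% of those with the rise and no fall. Days 4 and 5 chose the genes and lie next to day 3, so a low day 3 is no independent result. Of the log2 fall, a median of 79.1% had taken place by day 3 (range 22.0% to 186%), and 23 genes had reached or passed their later level. Day 1 peaks had come 88.1% of the way and day 2 peaks 73.7%. Taken over the single day after the peak, the median step was -1.24 log2 units (range -5.04 to -0.17) for day 1 peaks and -1.44 (range -3.51 to -0.34) for day 2 peaks.

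The lowest day 3 value against the peak was that of Olig3, followed by Aqp3 and Prss50. Aqp3 stood -6.24 (interval -7.12 to -5.49) from its peak and Prss50 -5.11 (interval -7.41 to -3.53). At the other end, 6 genes lay less than 0.6 below their peak on day 3, namely Kcnk1, Nuak1, Spsb1, Nptx1, Dkk1 and Sema3e. In Kcnk1 the difference was -0.34 (interval -0.68 to -0.0028) and in Dkk1 -0.53 (interval -0.80 to -0.27). Of these 6, only Sema3e peaked on day 1. Against day 0, day 3 lay within 1 log2 unit in 56 genes (47.9%), against 68.4% of all symbols with a peak of 7 or more. It lay at least 1.5 above in 40 (34.2%), against 12.8%, and anywhere below in 34 (29.1%), against 49.7%. The median day 3 minus day 0 was 0.68, against 0.0071 over all such symbols and 2.40 over those with the rise and no fall.

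**Figure D3:**
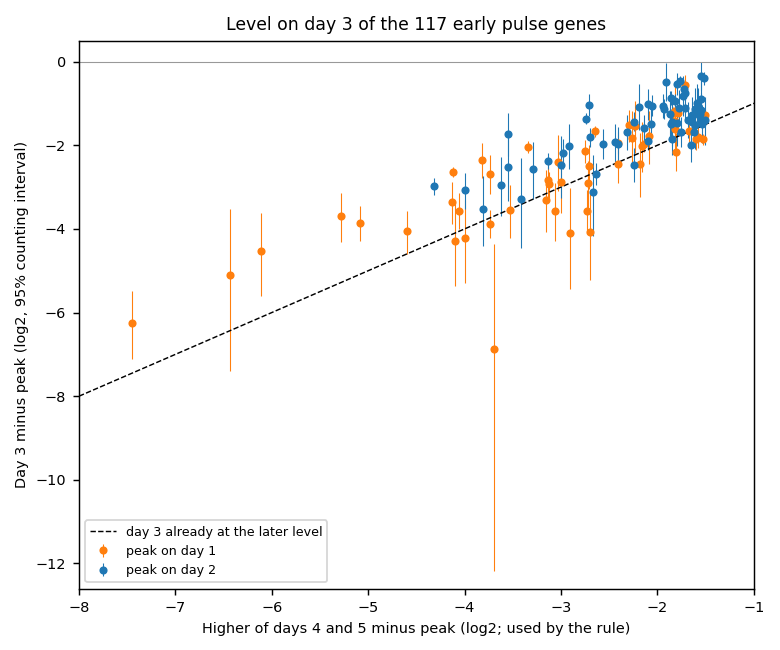
Day 3 minus peak (y axis, log2, bars are 95% counting intervals) against the higher of days 4 and 5 minus peak (x axis, log2) for the 117 genes, coloured by peak day. Every point lies below 0, and the 23 points on or under the dashed line had reached their later level by day 3.

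The level to which the genes returned differed. Day 5 lay within 1 log2 unit of day 0 in 69 of the 117 genes, at least 1.5 above it in 17 (14.5%) and at least 1.5 below it in 11 (9.40%). Among all symbols with a peak of 7 or more these shares were 15.9% above and 7.65% below. The share within 1 log2 unit of day 0 was not computed for them. The 17 that were above on day 5 were Zfp703, Crabp2, Wfikkn1, Gjb2, Olig3, Sp8, Gfra1, Tmem132e, Dlx3, Tmem178, Wnt5b, Cpeb1, Tubb4, Dkk1, Fam171b, Rasl10b and 1 clone name. For Olig3 and Gjb2 the day 0 value was that of 1 read, which may stand for none, and their day 5 levels were low. The 11 that were below on day 5 were Aqp3, Dmrt1, Calcoco2, Alpl, Slc1a5, Steap3, Prss50, Lrtm2, Cyp11a1 and 2 clone names. Among the 117 genes, day 5 was below day 0 in 42 of 52 day 1 genes and in 20 of 65 day 2 genes. The same split over all symbols was not computed, so it is not known to be particular to these genes. The median day 5 minus day 0 was -0.69 for day 1 genes and 0.66 for day 2 genes, and their median rises were 2.01 and 2.80. Days 0 and 5 both took part in the choice, so this is a description of the 117 genes.

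On day 6 the genes stood lower again, in a library that differed from the rest. The median day 6 minus day 0 was -1.42 log2 units, against -0.79 over all symbols with a peak of 7 or more. Its size depended on the scaling, at -0.41 with library medians aligned and -0.28 after quantile normalization. Day 6 was at least 1.5 below day 0 in 54 genes (46.2%), against 36.6% of such symbols, and at least 1.5 above in 9 (7.69%), against 13.2%. Against day 5, day 6 was at least 1.5 below in 59 genes (50.4%), against 43% of such symbols, and at least 1.5 above in 4 (3.42%), against 11.3%. The median day 6 minus day 5 was -1.51, against -1.10. Transcript length moved with this difference. Spearman's rho between length and day 6 minus day 5 was -0.55 over the 117 genes and -0.70 over all 12071 symbols. The latter include symbols with a peak under 7. Both values are descriptions, since all points share 2 libraries. Pulse genes of 500 to 1500 nt had a median day 6 minus day 5 of 0.79 (8 genes), those of 1500 to 3000 nt -1.09 (50 genes), those of 3000 to 5000 nt -2.15 (43 genes) and longer ones -2.34 (14 genes). All symbols with a peak of 7 or more in these classes had medians of 1.62, -0.35, -1.95 and -2.98. With the trend with length removed, the median day 6 minus day 0 was -0.60. The part of length in the day 6 levels was not tested beyond this. The 4 genes at least 1.5 higher on day 6 than on day 5 were Tle6, Crabp2, Thnsl2 and Rpph1, with lengths of 2029, 904, 1791 and 306 nt. Crabp2 stood 1.99 (interval 1.77 to 2.22) above day 5 and Tle6 1.75 (interval 1.24 to 2.27).

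**Figure D4:**
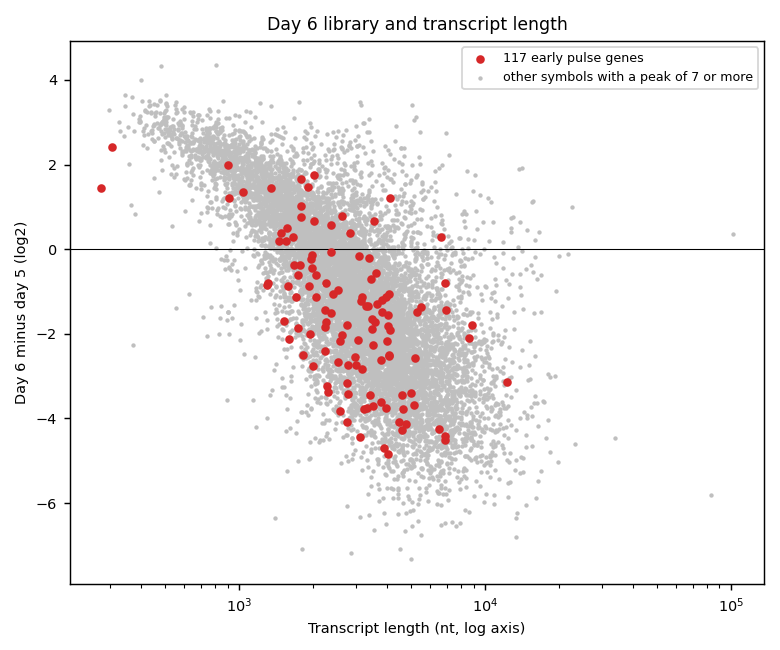
Day 6 minus day 5 (y axis, log2) against transcript length (x axis, nt, log scale) for the 117 pulse genes (red) and the other symbols with a peak of 7 or more (grey). Both sets slope downward, with rho of -0.55 for the pulse genes and -0.70 over all 12071 symbols, including those with a lower peak that are not drawn.

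The choice held across transcripts of the same gene. Of the 117 genes, 102 had 1 listed transcript and 15 had more, with 22 further transcripts, of which 21 met the thresholds. The exception was a Pacsin1 transcript with a rise of 1.38. Transcripts of a gene can share reads, so these are not independent measurements. Several pulse genes are neighbours. Ap3b2 and Cpeb1 lie on the minus strand of chromosome 7, at chr7:88605284-88638811 and chr7:88492328-88599562 in mm9, with 5.72 kb between them, and both peaked on day 2. Ap3b2 stood 5.28 and Cpeb1 3.87 above day 0. Cpeb1 had log2 values of 5.26, 8.60, 9.13, 7.28, 6.96, 7.29 and 5.26 on days 0 to 6 and was, like Ap3b2, already high on day 1. Hvcn1 and Pptc7, 42.1 kb apart on chromosome 5, both peaked on day 1. Lrtm2 and Wnt5b, 102 kb apart on chromosome 6, peaked on different days, Lrtm2 on day 1 and Wnt5b on day 2. In all, 15 pairs lay within 1 Mb. No such count was made for other symbols, so this number is no measure of clustering. Reads that run past a gene's end can reach a neighbour, and the sources used here do not say how these were counted.

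Of 20 gene lists, from which the 8 symbols left out by name are absent, 6 held at least 1 pulse gene, and 11 pulse genes stood on a list. The neural plate and hindbrain list held 4 (Sox3, Zic2, Olig3 and Msx1). Of its 13 genes with a peak of 7 or more, 8 had the rise and 8 the fall, with a median rise of 2.17 and a median fall of 2.73. For this and the lists below, the shares over all symbols with such a peak were 12.8% for the rise and 5.81% for the fall. All thresholds together were met by 1.04% of all symbols. The extraembryonic endoderm list had the rise in 16 of 18 genes and the fall in none, and the naive pluripotency list had the rise in none of 10 and the fall in 6. Neither held a pulse gene. The neuron list had 1 rise and 1 fall among 8 genes, the fibroblast and smooth muscle list 6 rises and no fall among 7, the trophoblast list 3 rises and no fall among 5, and the blood and endothelium list 2 rises and 1 fall among 5. None of these lists held a pulse gene either. Summed over its 12 genes in the table, the neuron list stood at 3539 scaled reads per kilobase on day 0, and at 1846, 1774, 1409, 1557, 2054 and 3965 on days 1 to 6, with no maximum on days 1 and 2. The part of other cell types in the pulse was not tested. By the annotation in the deposited table, 24 pulse genes (20.5%) were assigned to the plasma membrane, against 8.38% of all symbols with a peak of 7 or more, and 34 (29.1%) were integral to membrane, against 18.8%. Receptor activity was given for 11 (9.40%), against 3.62%, the extracellular region for 10 (8.55%), against 3.56%, and multicellular development for 14 (12%), against 4.21%. The nucleus was given for 24 (20.5%), against 28.5%. Other terms stood near the share over all such symbols. Regulation of transcription was given for 12 (10.3%), against 10.6%, transport for 10 (8.55%), against 9.05%, and transferase activity for 11 (9.40%), against 9.19%. These shares were not tested.

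The thresholds cut through a continuous range. Just inside the peak threshold stood Mael at 7.09, Gstt1 at 7.39, Dlx3 at 7.44 and Tmem178 at 7.46, and just outside it Aurkc at 6.67, Zscan4e at 6.14, Susd5 at 6.07 and Zscan4c at 5.57. The Zscan4 genes mark rare stem cells that resemble the embryo at the stage of 2 cells. Of the 5 genes on a list of such markers in the table, 4 were highest on day 2, all under the peak threshold, and the Zscan4 genes are near-identical copies that can share reads. Zscan4c stood at 5.57 on day 2, against 2.53 on day 0, and Zscan4f at 5.40, against 2.53. Zscan4d stood at 4.72, against 3.75, and Tcstv3 at 4.90, against 2.53. The abundant Eif1a, the other gene of the list, stood at 10.75 on day 2, against 11.67 on day 0. The smallest rises inside were 1.51 in a clone name, 1.53 in Thnsl2, 1.53 in Nlrp6 and 1.53 in Pacsin1. The nearest outside were 1.48 in Igfbp2, 1.45 in Prph, 1.45 in Plvap and 1.45 in Zic5. For the fall, Agpat3 at 1.5, Ttbk1 at 1.51, Nuak1 at 1.51 and Zfp703 at 1.53 stood inside, and Ppl at 1.498, Ier5l at 1.49, a clone name at 1.48 and Meox1 at 1.47 outside.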

How the data were processed

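Per the labels' protocols, ribosomal RNA was removed from total RNA before stranded library preparation. Per the submitters' processing notes, BWA 0.7.3 aligned the reads to mm9. How reads were counted, by strand or not, and how libraries were scaled is not given in the sources read. The authors deposited log2 values per RefSeq transcript. Raised from the log, values under 1000 reads were whole multiples of 1 read within 0.05 reads in all 7 libraries (100%), so reads were recovered by dividing by that step. The lowest value was taken as 1 read and may stand for none. Of 15296 transcripts, the 1 with the highest mean was used for each of 12071 symbols. Depth sets the counting intervals; since no molecular identifiers were used, reads are not independent molecules. With 1 library a day there are no p-values. The values of 1 member are not reported here.

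The members, lists and roles were chosen with earlier results of these data known. The genes named were the 20 with the highest pulse, those on a list, those with several transcripts and those nearest a threshold; all others were named after their values were seen. Alternatives were other thresholds, transcript choices, scalings and a filter on low values. The calculations were checked on simulated data and used Python 3.11.15, pandas 2.3.3, numpy 2.4.6, scipy 1.17.1 and matplotlib 3.10.9.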

Additional observations from a re-analysis of the deposited data

How the results depend on the processing

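No paired analysis was possible because each day had 1 library, and leaving a library out would leave its day without a value. The number of pulse genes was 117 under the thresholds used, 262 with a rise and fall of 1 or more, and 46 with 2 or more. Other peak minimums gave 120 (6 or more) and 90 (8 or more), other transcript choices 117 and 118, and other scalings 93 to 108, of which 93 to 103 were among the 117. The median day 6 minus day 0, -1.42 as reported, was -0.28 after quantile normalization and -2.67 over the 19 genes whose mean exceeded the 40th percentile, against -0.41, -0.81, -1.07 and -0.60 with medians aligned, with TMM factors, with reads scaled to library size plus 1 and with the length trend removed. The median day 3 minus peak ranged from -1.88 to -1.41, and no value changed sign. The cause of these differences was not tested. The share of promoters with a retinoic acid response element pair stayed 0 with strict half-sites, with a spacer of 5 alone and, an alternative chosen after seeing the data, with each promoter entry counted. Depth limits genes with few reads on day 0, and no replicate culture shows the spread between cultures.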
